A study of Arabidopsis with 24 samples.

Results

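The 7 cytokinin oxidase/dehydrogenase genes of Arabidopsis, CKX1 to CKX7, were followed over all 8 groups of an RNA-seq series. They were taken by locus code from the 32833 genes with deposited values. CKX1 (AT2G41510) and CKX2 (AT2G19500) lie on chromosome 2, CKX3 (AT5G56970) and CKX7 (AT5G21482) on chromosome 5, CKX4 (AT4G29740) on chromosome 4, CKX5 (AT1G75450) on chromosome 1 and CKX6 (AT3G63440) on chromosome 3. The older names of these genes overlap, so the locus codes decide: RefSeq lists CKX6 as a former name of AT1G75450, ATCKX7 as one of AT3G63440 and ATCKX5 as one of AT5G21482. A mean of at least 0.5 FPKM over the libraries was required for a test, which 5 of the 7 genes met, along with 20682 genes in all. CKX2 and CKX3 lay under it and are described by their levels.

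Whole seedlings of 4 genotypes were sequenced. The line dvl1-1D overexpresses RTFL18, a gene for a small peptide of the RTFL/DVL family. In bsk36, T-DNA insertions in BSK3 and BSK6, kinases of brassinosteroid signaling, are combined. The third mutant, pif47, carries mutations in PIF4 and PIF7, bHLH transcription factors that act in the response to neighbouring plants, and Col-0 is the wild type and the background of all 3 mutants. Seedlings of each genotype were grown for 6 days in white light (WL) and were then given low R:FR (a red to far-red ratio of 0.3, which imitates plant shade) for 6 h or were kept in WL. Each of the 8 groups had 3 replicates, and nothing states that they came from separate cultures, so p-values measure the spread between these samples, which may be technical. Each mutant genotype is a single line.

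Cytokinins are plant hormones that promote cell division in shoots, delay leaf senescence and are sensed by histidine kinase receptors. CKX enzymes break active cytokinins down irreversibly by removing the side chain, so that they set how long the hormone lasts at a site. Induction of a cytokinin oxidase gene through auxin in young leaf primordia is a known part of the response of Arabidopsis to simulated shade. Most CKX enzymes enter the secretory pathway, whereas CKX7 is cytosolic.

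RTFL18 had 517 to 975.03 FPKM in dvl1-1D and at most 12.9 FPKM in Col-0, BSK3 at most 0.03 FPKM in bsk36 and at least 22.3 FPKM in Col-0, BSK6 at most 0.75 FPKM in bsk36 and at least 9.49 FPKM in Col-0, and PIF7 at most 1.34 FPKM in pif47 and at least 9.83 FPKM in Col-0. PIF4 kept 1.64 to 2.34 FPKM in pif47 in WL, against 6.68 to 7.46 FPKM in Col-0 in WL, and 7.67 to 8.05 FPKM in low R:FR, against 22.1 to 26.5 FPKM in Col-0 in low R:FR. The shade marker PIL1 had 27.9 to 35.1 FPKM in low R:FR and 0.35 to 0.89 FPKM in WL over the 4 genotypes. Summed FPKM of 5 leaf markers (41500 to 52282 per library) and of 9 root markers (71.0 to 165) were those of whole seedlings, and 4 flower markers summed to 0.45 to 1.15 FPKM. FPKM give no number of reads. The libraries summed to between 758368 and 801109 FPKM, and steps between low values gave a relative depth of 0.797 to 1.31, so the number of reads behind values near or under 1 FPKM, which all libraries had for CKX2 and CKX3, many for CKX1 and most low R:FR libraries for CKX4, is not known.

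CKX6, CKX7 and CKX5 had the highest levels of the family when averaged over all groups, but the order differed between light conditions. FPKM are scaled by transcript length, so levels can be set side by side between genes. Over the 24 libraries, CKX6 averaged 6.08 FPKM (range 4.56 to 7.46), CKX7 averaged 4.91 FPKM (3.04 to 7.38) and CKX5 averaged 4.24 FPKM (1.18 to 10.7). CKX4 averaged 1.48 FPKM (0.59 to 2.88) and CKX1 0.978 FPKM (0.44 to 1.42). In low R:FR in Col-0, CKX5 was highest (8.13 FPKM on average), ahead of CKX6 (7.08 FPKM) and CKX7 (3.96 FPKM). In WL in Col-0, CKX7 was highest (6.51 FPKM), ahead of CKX6 (5.22 FPKM), and the mean of CKX4 (2.31 FPKM) was above that of CKX5 (1.77 FPKM), with ranges that overlapped. CKX3, at 0.440 FPKM over all libraries, and CKX2, at 0.322 FPKM, were lowest, and no member was listed at 0 in any library. The members differed in how far they varied: the highest value of CKX5 was 9.10 times its lowest, that of CKX4 4.88 times, that of CKX7 2.43 times and that of CKX6 1.64 times.

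**Figure D1:**
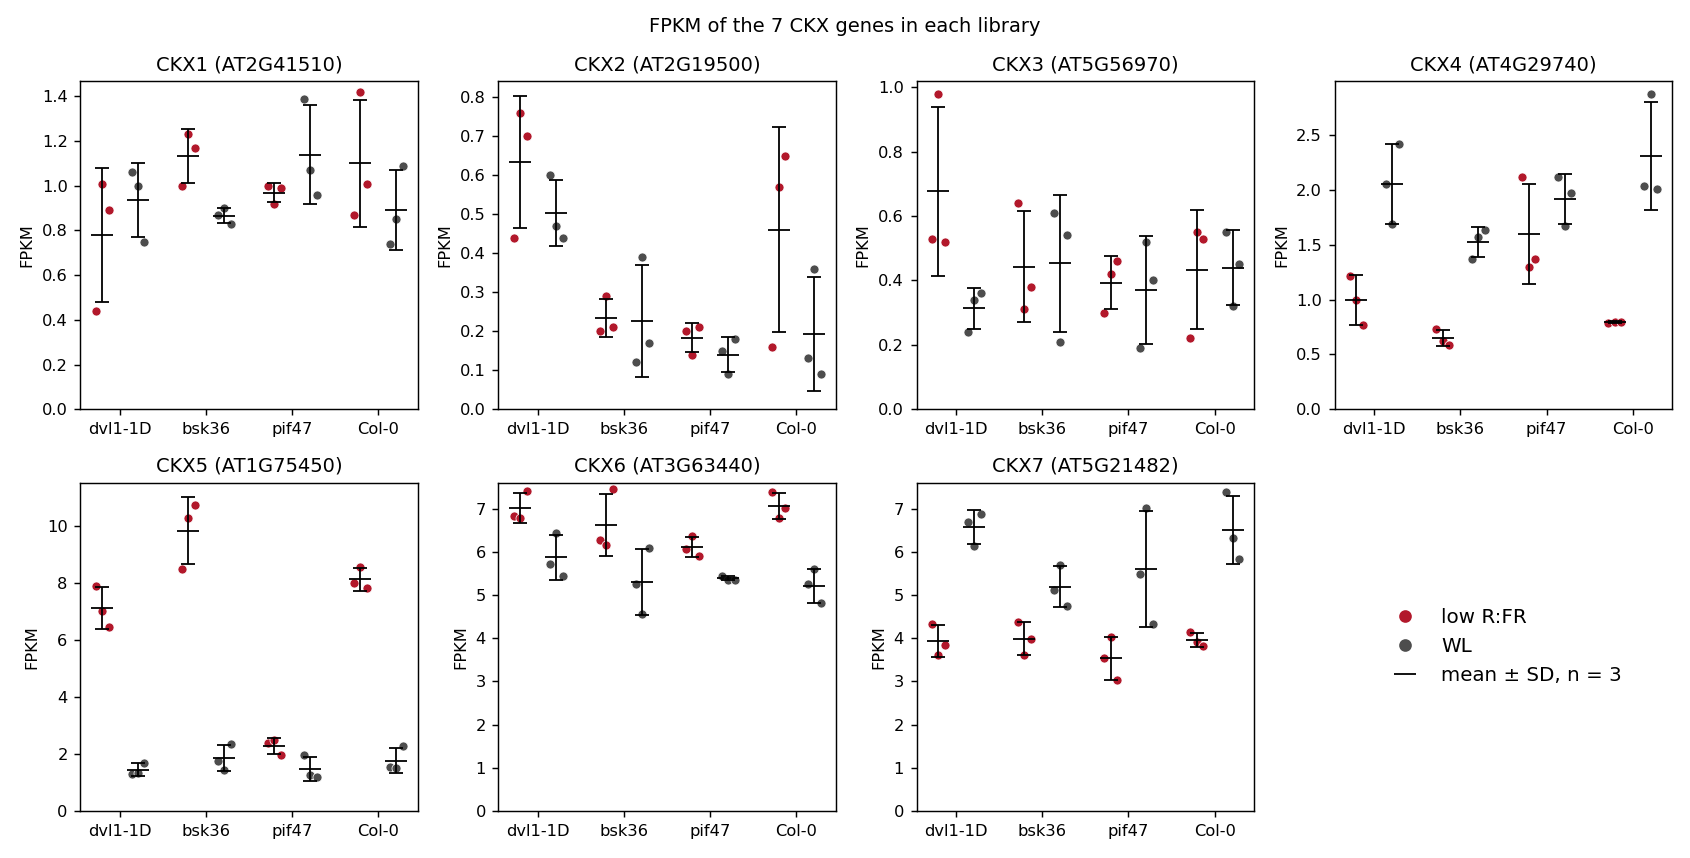
FPKM of each CKX gene in each library, with 1 panel per gene, genotypes along the horizontal axis, low R:FR in red and WL in grey; bars show the mean ± SD (n = 3). CKX5 stands at 6.47 to 10.7 FPKM in low R:FR in dvl1-1D, bsk36 and Col-0, and at 1.96 to 2.5 FPKM in low R:FR in pif47; the vertical axes start at 0 and differ between panels.

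Low R:FR moved members of the family in opposite directions. In Col-0, CKX5 and CKX6 rose, CKX4 and CKX7 fell, and CKX1 did not pass the test. This was 2 of 5 tested members that rose and 2 that fell at a limma adjusted p under 0.05, where 21% of all tested genes rose and 15.7% fell. At the thresholds of the study, a log2 fold change of 1 or more in size with an unadjusted P no higher than 0.01, CKX5 rose and CKX4 fell, where 2.16% of all tested genes rose and 1.32% fell. In dvl1-1D, 1 member rose and 2 fell (10.7% and 8.35% of all tested genes). In bsk36, 2 rose and 1 fell (8.09% and 9.24%), and pif47 had 1 that rose and 1 that fell (8.25% and 10.1%). At the thresholds of the study, 1 member rose and 0 fell in dvl1-1D (1.32% and 0.45% of all tested genes), 1 rose and 1 fell in bsk36 (1.3% and 0.701%), and 0 rose and 0 fell in pif47 (0.701% and 0.392%). With 5 members, these shares are coarse, and the account therefore goes gene by gene. All fold changes are differences of mean log2(FPKM + 0.1), which understates changes of genes with low values.

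CKX5, which together with CKX3 is known to limit cytokinin in inflorescence meristems, rose most. In Col-0 it had 7.99, 8.58 and 7.83 FPKM in low R:FR, against 1.53, 1.49 and 2.28 FPKM in WL. Every low R:FR library lay far above every WL library. On the log2 scale the change was 2.17 (limma adjusted p = 4.54e-08, standard error 0.194), a 4.49-fold rise.

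CKX5 rose by a like amount in 2 of the mutants. In dvl1-1D it had 7.91, 7.01 and 6.47 FPKM in low R:FR and 1.31, 1.33 and 1.7 FPKM in WL, which gave a log2 fold change of 2.23 (limma adjusted p = 5.83e-08, standard error 0.194). In bsk36 it had 8.51, 10.29 and 10.74 FPKM in low R:FR and 1.76, 1.45 and 2.34 FPKM in WL, which gave a log2 fold change of 2.37 (limma adjusted p = 2.86e-08). The groups did not overlap in either mutant. Of 9 root markers, 3 rose in low R:FR in Col-0 (21% of all tested genes rose), none was at 0 in all libraries of a group, and their summed level was 85.2 to 135 FPKM in low R:FR and 71.0 to 97.6 FPKM in WL. In dvl1-1D, where CKX5 rose as far, 0 of 9 root markers rose (10.7% of all tested genes) and their sums were 86.2 to 96.6 FPKM in low R:FR and 86.5 to 101 FPKM in WL. In bsk36, 0 of 9 rose, beside 8.09% of all tested genes (80.2 to 142 FPKM in low R:FR and 77.0 to 105 FPKM in WL), and in pif47, where CKX5 rose least, 1 of 9 rose, beside 8.25% (109 to 165 FPKM in low R:FR and 94.9 to 99.2 FPKM in WL). Of 5 leaf markers, the numbers that rose and fell in low R:FR were 0 and 0 in bsk36, 1 and 2 in dvl1-1D, and 2 and 1 in pif47 as well as in Col-0. The part of these markers in the change of CKX5 was not tested. In whole seedlings, more cells that express a gene and more RNA per cell cannot be told apart.

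In pif47, CKX5 had 2.37, 2.5 and 1.96 FPKM in low R:FR and 1.97, 1.27 and 1.18 FPKM in WL. The lowest low R:FR library and the highest WL library had nearly the same value, so the ranges overlapped. The log2 fold change was 0.62 (standard error 0.194, 95% interval 0.22 to 1.03, limma adjusted p = 0.03). This call was lost without WL replicate 2 or 3 or low R:FR replicate 1 or 2 of pif47 (adjusted p = 0.12, 0.118, 0.0812 and 0.105) and with the pif47 libraries alone in the model (adjusted p = 0.113).

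CKX4, a gene for a secreted enzyme that is known to be active in trichomes, stipules and root caps, moved the other way. In Col-0 it had 0.79, 0.8 and 0.8 FPKM in low R:FR, against 2.04, 2.88 and 2.01 FPKM in WL. The 3 low R:FR libraries were almost alike and all lay far below the WL libraries. It fell by 1.41 on the log2 scale (standard error 0.208, limma adjusted p = 2.48e-05), to 0.377 of the WL level on this scale. Since these values are low, the size depends on the pseudocount: with 1 in place of 0.1 the change was -0.87 and still passed.

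The fall of CKX4 was also seen in dvl1-1D, with 1.22, 1 and 0.77 FPKM in low R:FR and 2.06, 1.69 and 2.42 FPKM in WL (log2 fold change -0.98, limma adjusted p = 0.00195). In bsk36 it had 0.73, 0.62 and 0.59 FPKM in low R:FR and 1.37, 1.57 and 1.64 FPKM in WL (log2 fold change -1.12, limma adjusted p = 0.000593). Neither mutant had overlapping groups. In pif47, CKX4 had 2.12, 1.3 and 1.37 FPKM in low R:FR and 2.12, 1.67 and 1.97 FPKM in WL. The groups overlapped, since 1 low R:FR library equalled the highest WL library, and the log2 fold change of -0.28 (95% interval -0.71 to 0.16, limma adjusted p = 0.396) did not pass.

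CKX6, which is known for promoter activity in vascular tissue, rose by a small amount. In Col-0 it had 7.4, 6.8 and 7.03 FPKM in low R:FR and 5.25, 5.6 and 4.81 FPKM in WL, which gave a log2 fold change of 0.43 (limma adjusted p = 0.00173, standard error 0.0988). The groups did not overlap, and the rise was 1.35-fold. In bsk36 it had 6.27, 6.16 and 7.46 FPKM in low R:FR and 5.27, 4.56 and 6.1 FPKM in WL, which gave a log2 fold change of 0.32 (limma adjusted p = 0.0292). That call was lost without WL replicate 1 or 2 or low R:FR replicate 3 of bsk36 (adjusted p = 0.0704, 0.176 and 0.176) and with the bsk36 libraries alone in the model (adjusted p = 0.213).

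In dvl1-1D, CKX6 had 6.84, 6.79 and 7.41 FPKM in low R:FR and 5.73, 6.45 and 5.45 FPKM in WL (log2 fold change 0.25, limma adjusted p = 0.0816). In pif47 it had 6.07, 6.36 and 5.91 FPKM in low R:FR and 5.44, 5.36 and 5.36 FPKM in WL (log2 fold change 0.18, limma adjusted p = 0.23). Neither passed, although in both genotypes the 3 low R:FR libraries lay above the 3 WL libraries.

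CKX2, which encodes a secreted enzyme, was near the floor of the data. It had 0.44, 0.76 and 0.7 FPKM in low R:FR and 0.6, 0.47 and 0.44 FPKM in WL in dvl1-1D, the genotype with the highest mean levels. In Col-0 it had 0.16, 0.57 and 0.65 FPKM in low R:FR and 0.13, 0.36 and 0.09 FPKM in WL. The groups of both genotypes overlapped. In bsk36 the values were 0.2, 0.29 and 0.21 FPKM in low R:FR and 0.12, 0.39 and 0.17 FPKM in WL, and in pif47 they were 0.2, 0.14 and 0.21 FPKM in low R:FR and 0.15, 0.09 and 0.18 FPKM in WL. With the filter lowered to 0.1 FPKM, CKX2 was tested among 23089 genes, and no contrast passed. There the low R:FR effect in Col-0 was 0.90 (standard error 0.417, limma adjusted p = 0.108). Against Col-0 in WL, the difference of dvl1-1D was 1.14 (limma adjusted p = 0.13), and each dvl1-1D library in WL was above each Col-0 library in WL.

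CKX7, the cytosolic member, fell in 3 genotypes. In dvl1-1D it had 4.33, 3.61 and 3.85 FPKM in low R:FR and 6.69, 6.14 and 6.88 FPKM in WL. In Col-0 the values were 4.14, 3.91 and 3.82 FPKM in low R:FR and 7.38, 6.31 and 5.83 FPKM in WL. In both genotypes the groups were clearly apart, with log2 fold changes of -0.73 in dvl1-1D (limma adjusted p = 0.000893) and -0.70 in Col-0 (limma adjusted p = 0.000648, standard error 0.142 for both).

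In pif47, where CKX4 did not pass, CKX7 fell too, with 3.54, 4.03 and 3.04 FPKM in low R:FR and 5.48, 7.01 and 4.32 FPKM in WL (log2 fold change -0.63, standard error 0.142, limma adjusted p = 0.00339). Its WL libraries were spread widely but all lay above the low R:FR libraries, and the adjusted p was 0.0831 with the pif47 libraries alone in the model. In bsk36, CKX7 had 4.37, 3.62 and 3.98 FPKM in low R:FR and 5.12, 5.69 and 4.75 FPKM in WL. These groups did not overlap either, but the log2 fold change of -0.37 (limma adjusted p = 0.081) did not pass. It passed once WL replicate 2 or 3 of pif47, a group in which CKX7 was widely spread, was left out (adjusted p = 0.0431 and 0.0425).

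CKX1 and CKX3 are known to enter the endomembrane system, and neither gave a change that passed. CKX1 had 0.87, 1.42 and 1.01 FPKM in low R:FR and 0.74, 0.85 and 1.09 FPKM in WL in Col-0 (log2 fold change 0.26, 95% interval -0.27 to 0.80, limma adjusted p = 0.457). Its values overlapped there. In bsk36, CKX1 had 1, 1.23 and 1.17 FPKM in low R:FR and 0.87, 0.9 and 0.83 FPKM in WL, groups that did not overlap, with a log2 fold change of 0.35 (limma adjusted p = 0.414). In dvl1-1D it had 0.44, 1.01 and 0.89 FPKM in low R:FR and 1.06, 1 and 0.75 FPKM in WL, and the difference of -0.29 was 0.03 without low R:FR replicate 1, the lowest library. In pif47 it had 1, 0.92 and 0.99 FPKM in low R:FR and 1.39, 1.07 and 0.96 FPKM in WL (log2 fold change -0.20, limma adjusted p = 0.652). The intervals of CKX1 reach beyond 0.5 in size in every genotype, so a moderate change was not detectable at these levels.

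CKX3 ranged from 0.19 FPKM in a pif47 library in WL to 0.98 FPKM in a dvl1-1D library in low R:FR. In dvl1-1D it had 0.53, 0.98 and 0.52 FPKM in low R:FR and 0.24, 0.34 and 0.36 FPKM in WL. These groups did not overlap, and with the lower filter the log2 fold change was 0.87 (standard error 0.387, limma adjusted p = 0.143). In Col-0 the groups overlapped, with 0.22, 0.55 and 0.53 FPKM in low R:FR and 0.55, 0.32 and 0.45 FPKM in WL. Overlap was also found in bsk36 (0.64, 0.31 and 0.38 FPKM in low R:FR and 0.61, 0.21 and 0.54 FPKM in WL) and in pif47 (0.3, 0.42 and 0.46 FPKM in low R:FR and 0.19, 0.52 and 0.4 FPKM in WL).

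**Figure D2:**
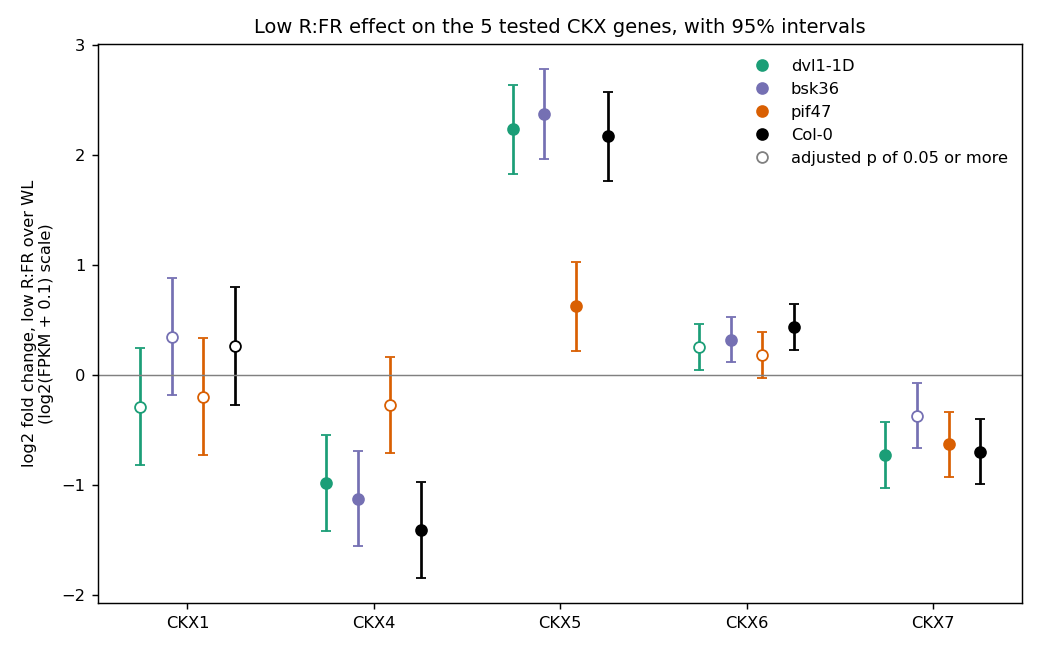
Log2 fold change between low R:FR and WL of the 5 tested CKX genes in each genotype, on the log2(FPKM + 0.1) scale, with 95% intervals from limma; filled points passed an adjusted p of 0.05. For CKX5, the interval of pif47 (0.22 to 1.03) lies below those of dvl1-1D, bsk36 and Col-0, which begin at 1.82, 1.96 and 1.76.

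The mutants were next compared with Col-0 within each light condition. In WL, 0 of 5 members passed in dvl1-1D (4.63% of all tested genes), in bsk36 (18.6%) and in pif47 (3.65%). At an unadjusted p under 0.05, 2 members differed from Col-0 in bsk36, 0 in dvl1-1D and 0 in pif47. Those of bsk36 were CKX4, with 1.37, 1.57 and 1.64 FPKM in bsk36 and 2.04, 2.88 and 2.01 FPKM in Col-0 (log2 fold change -0.55, limma adjusted p = 0.0702), and CKX7 (log2 fold change -0.32, limma adjusted p = 0.123). For both genes each bsk36 library was below each Col-0 library. By p, CKX4 ranked 4545 and CKX7 ranked 6067 among the 20682 tested genes in this comparison. Unadjusted p-values under 0.05 were thus common there and do not mark out the family. The difference of CKX4 passed under 3 other settings, with scaling by the median ratio (log2 fold change -0.63, adjusted p = 0.0406), with quantile normalization (adjusted p = 0.0446) and without the mean-variance trend (adjusted p = 0.044).

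In low R:FR, pif47 differed from Col-0 in 2 of 5 members, where 13.5% of all tested genes passed. CKX5 was lower, with 2.37, 2.5 and 1.96 FPKM in pif47 and 7.99, 8.58 and 7.83 FPKM in Col-0, which gave a log2 fold change of -1.80 (limma adjusted p = 1.85e-06, standard error 0.194). CKX4 was higher, with 2.12, 1.3 and 1.37 FPKM in pif47 and 0.79, 0.8 and 0.8 FPKM in Col-0, which gave a log2 fold change of 0.89 (limma adjusted p = 0.00665, standard error 0.208). Neither gene had overlapping groups. At the thresholds of the study, CKX5 alone of the 5 passed (2.19% of all tested genes). The difference of CKX4 passed in each of the 24 fits that left out 1 library, with adjusted p of at most 0.0495, but not with the 2 groups alone in the model (adjusted p = 0.0769). CKX6 was lower in pif47 by less (log2 fold change -0.21, limma adjusted p = 0.183). In dvl1-1D (9.4% of all tested genes) and in bsk36 (1.44%), 0 of 5 members passed in low R:FR, and at an unadjusted p under 0.05 there were 0 in each.

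The difference of the low R:FR effects was tested as an interaction between genotype and light. In pif47, 2 of 5 members passed, where 2.44% of all tested genes did. The low R:FR effect on CKX5 was smaller in pif47 than in Col-0 by 1.54 on the log2 scale (interaction -1.54, standard error 0.275, 95% interval -2.12 to -0.97, limma adjusted p = 0.00304). The fall of CKX4 was smaller in pif47, with an interaction of 1.13 (standard error 0.295, 95% interval 0.52 to 1.74, limma adjusted p = 0.0444). The call of CKX5 held under all 11 other settings and in all 24 fits that left out 1 library, whereas that of CKX4 was lost under 7 of the settings and in 16 of the 24 fits and was 0.69 with a pseudocount of 1 (adjusted p = 0.0544). CKX6 (interaction -0.25, limma adjusted p = 0.416), CKX1 (-0.46, limma adjusted p = 0.608) and CKX7 (0.07, 95% interval -0.35 to 0.48, limma adjusted p = 0.92) did not pass.

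In dvl1-1D (2.34% of all tested genes) and in bsk36 (3.03%), the interaction passed for 0 of 5 members, and 0 had an unadjusted p under 0.05 in either. For CKX5 it was 0.06 in dvl1-1D (95% interval -0.51 to 0.64) and 0.20 in bsk36 (-0.37 to 0.78). These intervals hold differences of more than 0.5 on the log2 scale in both directions for dvl1-1D and upward for bsk36, but not a loss as large as that in pif47. For CKX4 the interaction was 0.43 in dvl1-1D (-0.19 to 1.04) and 0.28 in bsk36 (-0.33 to 0.90), and both intervals reach into that of pif47. All 3 interactions use the same Col-0 libraries.

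The low R:FR effect of pif47 was also set directly against that of the other mutants, a test added after the data were seen. CKX5 was the member that passed. Its effect was smaller in pif47 than in dvl1-1D by 1.61 on the log2 scale (difference -1.61, standard error 0.275, limma adjusted p = 0.00265, 1.58% of all tested genes), and smaller than in bsk36 by 1.75 (difference -1.75, limma adjusted p = 0.000843, 2.37%). For CKX4 the differences were 0.71 from dvl1-1D (limma adjusted p = 0.324) and 0.85 from bsk36 (limma adjusted p = 0.171). The difference of CKX4 between pif47 and the other mutants therefore did not pass.

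The order of the groups by mean level summarises these patterns. For CKX5 the 3 highest groups were low R:FR seedlings of bsk36 (9.85 ± 1.18 FPKM, SD, n = 3), Col-0 (8.13 ± 0.395 FPKM) and dvl1-1D (7.13 ± 0.727 FPKM), with ranges that overlapped between neighbours. A gap without overlap followed, and then pif47 in low R:FR (2.28 ± 0.282 FPKM) and the 4 WL groups (1.45 to 1.85 FPKM on average) overlapped from each to the next. For CKX4 the 4 WL groups and pif47 in low R:FR came first (1.53 to 2.31 FPKM on average), and then, after a gap, dvl1-1D (0.997 ± 0.225 FPKM), Col-0 (0.797 ± 0.00577 FPKM) and bsk36 (0.647 ± 0.0737 FPKM) in low R:FR, of which bsk36 did not overlap with Col-0. For CKX7 the means of the 4 WL groups (5.19 to 6.57 FPKM) lay above those of the 4 low R:FR groups (3.54 to 3.99 FPKM). Within each set of 4 every group overlapped with the next in order. Single libraries of the sets overlapped, since a pif47 library in WL (4.32 FPKM) was below low R:FR libraries of bsk36 (4.37 FPKM) and dvl1-1D (4.33 FPKM). For CKX6 the order of the means was the other way round, with 6.11 to 7.08 FPKM in the low R:FR groups and 5.22 to 5.88 FPKM in the WL groups. No gap parted the sets of CKX6 either, since pif47 in low R:FR overlapped with dvl1-1D in WL. The groups of CKX1, CKX2 and CKX3 overlapped with their neighbours throughout.

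With members moving in opposite directions, the summed level of the 7 genes moved less than CKX5 did. In Col-0 the sum was 21.6, 22.6 and 21.7 FPKM in low R:FR and 17.6, 17.8 and 16.6 FPKM in WL, with CKX5 at 37.0% of it in low R:FR and 10.3% in WL on average. CKX7 took 18.03% in low R:FR and 37.5% in WL, and CKX4 took 3.63% in low R:FR and 13.3% in WL, while CKX6 took 32.3% in low R:FR and 30.1% in WL. In WL, then, CKX7 and CKX6 made up most of the family's transcripts, and in low R:FR CKX5 and CKX6 did.

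The sum was also higher in low R:FR in dvl1-1D (21.2 ± 0.55 FPKM, against 17.7 ± 0.29 FPKM in WL, SD, n = 3 each) and in bsk36 (22.9 ± 1.45 FPKM, against 15.4 ± 0.841 FPKM in WL). In pif47 it was 15.1 ± 0.979 FPKM in low R:FR and 16.0 ± 1.45 FPKM in WL, and these ranges overlapped, as they did in no other genotype. The share of CKX5 was 33.7% in low R:FR and 8.16% in WL in dvl1-1D. In bsk36 it was 42.9% in low R:FR and 11.9% in WL, and in pif47 it was 15.1% in low R:FR and 9.15% in WL. In pif47 in low R:FR, CKX6 had the largest share, 40.6%. No test was run on these sums, which follow from the members' values.

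**Figure D3:**
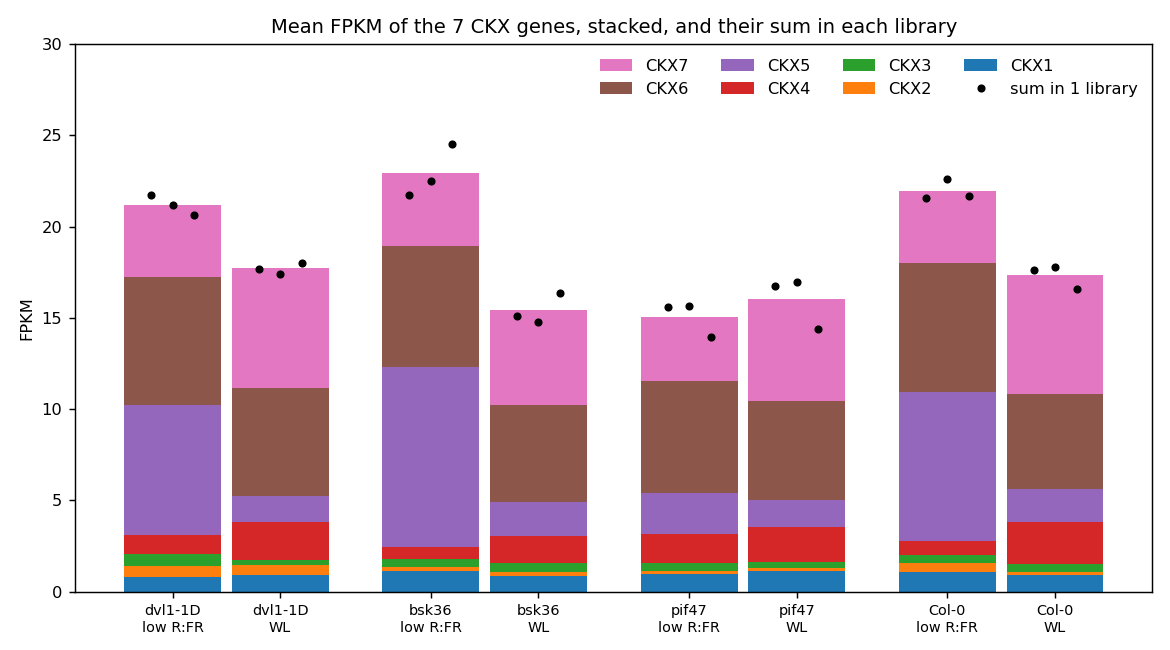
Mean FPKM of the 7 CKX genes stacked for each group, with low R:FR left of WL within each genotype; points show the sum in each library. The sum reaches 20.6 to 24.5 FPKM in low R:FR in dvl1-1D, bsk36 and Col-0, while in pif47 it is 13.9 to 15.7 FPKM in low R:FR and 14.37 to 16.99 FPKM in WL.

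Over the 24 libraries, the tested members formed opposing pairs. CKX5 and CKX4 had a Pearson correlation of -0.89 on the log2 scale, CKX5 and CKX6 one of 0.77, CKX5 and CKX7 one of -0.65, and CKX4 and CKX7 one of 0.66. Within groups, after the group means were removed, these 4 values were 0.16, 0.16, -0.08 and 0.01. The pattern thus lies between the groups. CKX1 correlated with no other member by more than 0.21 in size. The 24 points share 8 groups and are given as a description.

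The genes with the pattern most like each member were named by the 3 highest Pearson correlations over the same libraries. For CKX5 they were AT3G54400 (0.975), AT5G02540, which is annotated as an NAD(P)-binding Rossmann-fold protein (0.971), and ST2A, a sulfotransferase gene (0.971). For CKX4 they were AT3G44970, a cytochrome P450 gene (0.921), APS3 (0.909) and JAL22, a jacalin-related lectin gene (0.907). The nearest genes of CKX7 were AT2G04360 (0.924), SCO1, which encodes a chloroplast elongation factor G (0.893), and AT2G19740, which encodes a ribosomal protein of the large subunit (0.891). For CKX6 they were AT4G32290 (0.895), AT4G16150, a calmodulin-binding transcription regulator gene (0.865), and CAT1 (0.858), and for CKX1 they were AT3G55640 (0.754), AT3G52561 (0.691) and AT1G76705 (0.674). By Spearman correlation, 1 of these 3 stayed among the first 3 for each of CKX1, CKX4 and CKX5, 2 did for CKX7 and 0 for CKX6.

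CKX enzymes act beside genes that make, activate, glucosylate, move and sense cytokinins, and 62 such genes in 8 lists were examined, of which 52 were tested. In Col-0, 10 of the 52 rose in low R:FR (19.2%, against 21% of all tested genes) and 15 fell (28.8%, against 15.7%), with a median log2 fold change of 0.02 beside 0.06 for all tested genes. In dvl1-1D 2 rose (3.85%, against 10.7% of all tested genes) and 8 fell (15.4%, against 8.35%). In bsk36 there was 1 that rose (1.92%, against 8.09%) and 9 fell (17.3%, against 9.24%). In pif47, 6 rose (11.5%, against 8.25%) and 9 fell (17.3%, against 10.1%). Of each list, up to 3 genes that passed in Col-0 are named, those with the smallest P.

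Among other genes that remove or store cytokinin, 2 of 5 tested glucosyltransferase genes fell in Col-0, 0 rose and 3 did not pass, with a median log2 fold change of -0.08 (15.7% of all tested genes fell, and their median was 0.06). Those that fell were UGT85A1, which O-glucosylates zeatin, with a log2 fold change of -0.99 (limma adjusted p = 3.5e-09, standard error 0.073), and UGT76C2, which N-glucosylates cytokinins, with -1.01 (limma adjusted p = 1.5e-05). Both also fell in dvl1-1D (UGT85A1 -0.996 and UGT76C2 -0.91), in bsk36 (-0.98 and -1.13) and in pif47 (-0.37 and -0.46). The interaction of pif47 passed for UGT85A1 (0.63, limma adjusted p = 0.00155) and not for UGT76C2 (0.55, limma adjusted p = 0.181). Low R:FR thus raised CKX5 and CKX6 in Col-0 while it lowered 2 other members of the family and 2 glucosyltransferases.

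Genes on the supply side moved both ways, as all tested genes did in Col-0 (21% rose and 15.7% fell). In Col-0, 20% of the tested synthesis genes rose and 40% fell, and 16.7% of the tested LOG genes rose and 16.7% fell. With so few genes, these shares are coarse. Of 5 tested synthesis genes, IPT5, an isopentenyltransferase gene, rose in Col-0 (log2 fold change 0.68, limma adjusted p = 0.028), while IPT9, which acts on tRNA (-0.64, limma adjusted p = 7.27e-07), and CYP735A2, which makes trans-zeatin precursors (-0.77, limma adjusted p = 0.0149), fell. Of 6 tested LOG genes, whose enzymes release active cytokinin from its nucleotides, LOG5 rose and LOG3 fell (-0.64, limma adjusted p = 0.0307). LOG5 had 3.90 ± 1.06 FPKM in low R:FR and 1.12 ± 0.17 FPKM in WL in Col-0 (SD, n = 3 each), which gave a log2 fold change of 1.68 (limma adjusted p = 9.36e-05). In pif47 it fell, with 0.857 ± 0.457 FPKM in low R:FR and 1.70 ± 0.506 FPKM in WL (log2 fold change -0.97, limma adjusted p = 0.0199), and its interaction was -2.65 (limma adjusted p = 0.000563). LOG5 was thus lower in pif47 than in Col-0 in low R:FR, as CKX5 was, with log2 fold changes of -2.13 for LOG5 and -1.80 for CKX5. In dvl1-1D in low R:FR, LOG5 was lower than in Col-0 too (log2 fold change -1.11, limma adjusted p = 0.0164), whereas CKX5 did not pass (-0.19, limma adjusted p = 0.591). LOG5 was picked by its P in Col-0, whose libraries the interaction and the comparisons with Col-0 also use, so the pick favours a difference. Its levels are low, and how its calls depend on the pseudocount or on single libraries is not given here.

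Of 6 tested transport genes, PUP14, a cytokinin importer, rose in Col-0 (0.37, limma adjusted p = 0.00339) and ABCG14, an exporter needed for transport from root to shoot, fell (-0.59, limma adjusted p = 0.00784). Among 9 receptors and phosphotransfer proteins 4 rose and 2 fell (21% and 15.7% of all tested genes in Col-0, shares that apply to the other lists named here too). AHP5, a phosphotransfer protein, rose (0.62, limma adjusted p = 1.97e-05), as did the receptor gene AHK3 (0.30, limma adjusted p = 0.0024), and AHP4 fell (-1.32, limma adjusted p = 0.000557). Of 6 type-B response regulators, the transcription factors of the pathway, 3 rose and 0 fell, each by a small amount: ARR12 (0.31), ARR1 (0.29) and ARR2 (0.30). Of 6 cytokinin response factors, 0 rose and 2 fell, CRF2 (-0.49, limma adjusted p = 0.0013) and CRF1 (-0.64, limma adjusted p = 0.0203).

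Of 9 tested type-A response regulators, which are rapidly induced by cytokinin and dampen its signaling, 0 rose and 5 fell in Col-0 (21% and 15.7% of all tested genes), among them ARR15 (-2.99, limma adjusted p = 1.87e-07), ARR7 (-1.21, limma adjusted p = 5.89e-06) and ARR4 (-1.05, limma adjusted p = 1.97e-06). In low R:FR ARR15 was at 0.06 to 0.18 FPKM, near the pseudocount, so the size of its fall depends on it. The median log2 fold change of this list was -0.28 in dvl1-1D (0.03 for all tested genes), -0.44 in bsk36 (-0.01), -0.03 in pif47 (0.03) and -0.71 in Col-0 (0.06). The interaction of pif47, which passed for 2.44% of all tested genes, passed for ARR15 (2.50, limma adjusted p = 0.00177), ARR4 (0.87, limma adjusted p = 0.00911) and ARR7 (0.88, limma adjusted p = 0.0383). These genes were picked by their P in Col-0, whose libraries the interaction also uses, so the pick favours a difference. The size for ARR15 again depends on the pseudocount. The median fall of the list was also smaller in dvl1-1D and bsk36 than in Col-0, although CKX5 rose by a like amount there. Interactions of these genes in dvl1-1D and bsk36 are not given here.

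**Figure D4:**
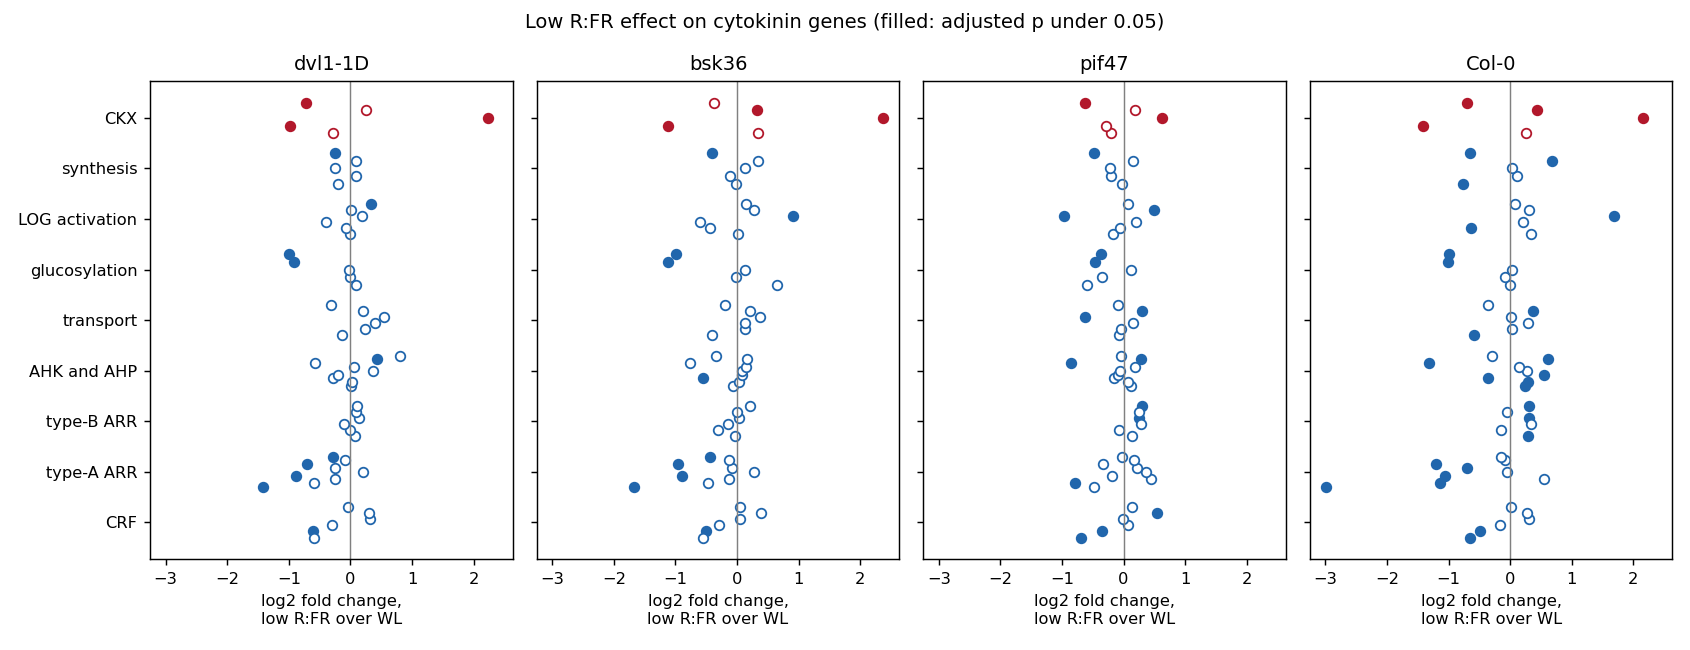
Log2 fold change between low R:FR and WL of each tested cytokinin gene in dvl1-1D, bsk36, pif47 and Col-0, with genes grouped by list (CKX in red, other lists in blue) and filled where the adjusted p was under 0.05; the vertical spread within a list only separates its genes. CKX5 is the point farthest to the right in dvl1-1D (2.23), bsk36 (2.37) and Col-0 (2.17), and ARR15 the one farthest to the left in these 3 genotypes (-1.41, -1.67 and -2.99).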

How the data were processed

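The authors deposited FPKM (fragments scaled by transcript length and library size) with 2 decimals for 32833 genes in 24 libraries of poly(A) RNA. The submitters' processing notes name fastp, cutadapt, HISAT2, DESeq2 and the build TAIR10; the counting tool, its use of strand and the annotation are not given in the sources used here. The 8 columns of group means were not used. Because FPKM are not counts, limma 3.58.1 (R 4.3.3) was run on log2(FPKM + 0.1) with 1 mean for each of 8 groups (eBayes with a mean-variance trend, Benjamini-Hochberg adjustment over the 20682 genes that averaged 0.5 FPKM or more); "rose" and "fell" mean an adjusted p under 0.05. The script was tested on simulated data. Named genes were the 7 members and up to 3 passing genes of each pathway list with the smallest P in Col-0. The 3 genes most correlated with each tested member were named too. Genes named for their interaction in pif47 were among these. For pathway genes this pick favours an interaction, since the interaction uses the same Col-0 libraries. The members and lists were chosen with earlier results of these data known. Other pseudocounts (0.5, 1), filters (0.1, 1, none), scalings, models and sets of libraries were tried; the tests of CKX2 and CKX3 at the lower filter and of pif47 against the other mutants were added after the data were seen. RefSeq (TAIR10.1) was used for names. Protein and promoter sequences were not used here.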

Additional observations from a re-analysis of the deposited data

Results flagged for a closer look

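For 2 genes the low R:FR effect differed between pif47 and Col-0 by a test of the difference itself. The interaction was -1.54 for CKX5 (standard error 0.275, limma adjusted p = 0.00304), whose rise was smaller in pif47. It was 1.13 for CKX4 (standard error 0.295, limma adjusted p = 0.0444), whose fall was smaller in pif47, and this value lies close to the threshold. In both genes the low R:FR libraries of pif47 lay apart from those of Col-0, while the WL libraries of the genotypes overlapped. Groups of 3 libraries were too small to look for single libraries that stand apart.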

How the results depend on the processing

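The 15 comparisons of the 5 tested members gave 75 differences, and under settings other than leaving out a library 784 of 810 values kept their direction and their side of the threshold. At the thresholds of the study, the members that rose and fell in low R:FR were 1 and 0 in dvl1-1D, 0 and 0 in pif47, and 1 and 1 in bsk36 as well as in Col-0, and 0 members were higher in pif47 than in Col-0 in low R:FR. With the groups of a contrast alone in the model, 1 member rose in bsk36, 0 rose and 0 fell in pif47, 0 were higher in pif47 than in Col-0 in low R:FR, and 0 passed upward in the interaction of pif47 (CKX4, adjusted p = 0.119). That interaction, CKX4, also passed for 0 members at pseudocounts of 0.5 and 1, with no filter, with a filter at 1, with quantile normalization and with the replicate block (adjusted p of CKX4 0.0503 to 0.055). In the comparison of bsk36 with Col-0 in WL, 1 member fell with the median ratio, with quantile normalization and without the trend.

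Among cytokinin pathway genes, the groups alone gave 3 that rose and 5 that fell in pif47 and 4 and 9 in Col-0, the thresholds of the study gave 0 and 2 in bsk36, 0 and 1 in dvl1-1D, 0 and 0 in pif47, and 1 and 6 in Col-0, and in bsk36 2 rose with a filter at 0.1 and with none. Without 1 library at a time, the members that rose numbered 1 to 2 and those that fell 1 to 2 in bsk36, those that rose 0 to 1 in pif47, and those with an upward interaction 0 to 1 in pif47, while the other member counts were the same in all 24 fits. For pathway genes the ranges were 2 to 4 rising and 7 to 9 falling in dvl1-1D, 0 to 2 and 9 to 11 in bsk36, 1 to 6 and 3 to 10 in pif47, and 7 to 11 and 10 to 15 in Col-0. The interaction of CKX4 was lost without Col-0 WL replicate 1 or 2, any Col-0 low R:FR replicate, dvl1-1D WL replicate 1, dvl1-1D low R:FR replicate 2, any bsk36 WL replicate, bsk36 low R:FR replicate 2, any pif47 WL replicate, or pif47 low R:FR replicate 1 or 3 (adjusted p 0.0507 to 0.129). The difference of CKX1 in dvl1-1D ranged from -0.49 to 0.029, with the highest value without low R:FR replicate 1 of dvl1-1D. The interaction of CKX5 with dvl1-1D ranged from -0.12 to 0.18 and was -0.0015 at a pseudocount of 1. Of the 75 differences, 42 were neither low R:FR effects within a genotype nor interactions of CKX5 and had an unadjusted limma p of 0.05 or more. These were at most 0.55 in size. They changed sign in 45 of 1459 values, fits without 1 library included, and passed in 0. The cause of these changes was not tested.

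Replicate numbers did not pair the libraries: same-numbered deviations correlated by -0.14 to 0.09, in 0 of 10 contrasts did every pair exceed 0.1, and 14 of 30 pairs correlated best with their own number. The replicate block changed no other call of a member. At a pseudocount of 1, called values of CKX4 were smaller by more than 1.5 times: its low R:FR effect was -0.62 in bsk36, -0.61 in dvl1-1D and -0.87 in Col-0, its difference between pif47 and Col-0 in low R:FR was 0.52, and its interaction in pif47 was 0.69. Read depth is unknown, which limits what values near or under 1 FPKM can show.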
